A study of Homo sapiens with 6 samples.

Results

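The regions described here were peaks of RNA polymerase I (Pol I) and RNA polymerase II (Pol II) on 17 human chromosomes. They lay beside the longest peak-free stretch of each chromosome, which was taken as the site of the centromere. They were selected on position alone, which is a measured value. On chromosomes 1 to 12 and 16 to 20, the longest stretch without a peak in any of the 4 deposited lists was found, and every peak with its nearest edge no more than 1 Mb away was taken. This gave 995 of 84817 listed peaks, of which 72271 were on these chromosomes. Of the 995, 116 were Pol I peaks after BMH-21, 390 were Pol I peaks after DMSO, 248 were Pol II peaks after BMH-21 and 241 were Pol II peaks after DMSO.

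The cells were LNCaP, an established line from a human prostate cancer, in a single line with no other line for comparison. They were given BMH-21 at 1 µM for 6 h or, as the control, the solvent DMSO. BMH-21 is a small molecule that binds DNA and inhibits Pol I. Chromatin was precipitated with the C-1 antibody, labelled as Pol I, or with the 4H8 antibody against Pol II phosphorylated at serine 5 of its repeat tail, and the recovered DNA was sequenced. There was 1 library for each antibody and treatment, so differences between BMH-21 and DMSO come without a replicate error and without p-values. Intervals in brackets are exact Clopper-Pearson 95% intervals and cover counting error over peaks only.

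Pol I makes the precursor of the large ribosomal RNAs inside the nucleolus, and Pol II makes messenger RNA and many noncoding RNAs. Serine 5 of the Pol II tail is phosphorylated near the start of transcription. Human centromeres are built on long arrays of alpha satellite DNA and are bordered by other satellites, segmental duplications and, on some arms, zinc finger gene families. This chromatin is mostly heterochromatin, part of which gathers around the nucleolus. The assembly hg19 has a block of unknown bases in place of each centromere and holds only some of the bordering repeats, so reads from many copies can match few places. How reads with several matches were placed is not given in the sources used here. The ribosomal DNA arrays lie on the short arms of the acrocentric chromosomes, which the 17 chromosomes do not include.

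The longest peak-free stretch measured 3.0 to 3.48 Mb on 14 of the 17 chromosomes. It was 21.2 Mb on chromosome 1, 19.0 Mb on chromosome 9 and 11.2 Mb on chromosome 16, the chromosomes known for large blocks of heterochromatin beside the centromere. The next longest stretch of a chromosome reached 0.678 to 2.2 Mb. The stretch lay where the centromere of each chromosome is known to lie. That is background knowledge, since no gap table or genome sequence of hg19 was used, and regions are therefore named by hg19 coordinates and without sequence or genes. Each stretch has a p side and a q side, which made 34 flanks of 1 Mb. On chromosomes 1, 9 and 16, where the stretch is long, a flank can lie several Mb from the centromere itself.

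Facts of the lists bear on every result below. Across the whole genome the lists held 1932 Pol I peaks after BMH-21 and 42547 after DMSO, and 11540 Pol II peaks after BMH-21 and 28798 after DMSO. Each peak has the authors' score, which starts at 50 and whose scale may differ between libraries. Read depth is unknown because the lists hold no read counts, and 2 input libraries were not analysed here. For each antibody, no BMH-21 peak overlapped a DMSO peak anywhere in the genome, and the peak numbers in the names have gaps. A place with a BMH-21 peak is therefore never a place with a listed DMSO peak of the same antibody, and this does not show that the polymerase came or went there.

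Listed Pol I peaks after BMH-21 were concentrated beside the stretch, and within the flanks their number relative to DMSO was larger the nearer the edge. The 116 peaks made 7.03% (5.85 to 8.38) of the BMH-21 Pol I peaks on these chromosomes, whereas the 390 DMSO Pol I peaks made 1.07% (0.968 to 1.18). In covered length the difference was wider, with 19.9% of the BMH-21 Pol I length and 1.22% of the DMSO Pol I length lying in the flanks. The BMH-21 to DMSO ratio of Pol I peaks was 0.297 in the flanks and 0.0426 on the rest of the same chromosomes, a 6.99-fold difference between the ratios. Without chromosomes 1 and 4 there were 72 BMH-21 Pol I peaks in the flanks, and the ratio was 0.218 there and 0.0441 elsewhere. The size of the fold depended on which peaks were counted. It was 4.94 without chromosomes 1 and 4, and 6.32 without the peaks that bound the stretch. The BMH-21 Pol I peaks themselves help to set the edges from which distance is counted. With the stretch taken from each list alone, the flanks held 78 BMH-21 Pol I peaks (4.73%) and 438 DMSO Pol I peaks (1.2%). The ratio in the flanks was then 0.178, and no fold was computed for this setting. Among peaks scored at or above the DMSO median the fold was 15.8, with ratios of 0.219 in the flanks and 0.0138 elsewhere. That cutoff was applied to both lists, whose score scales may differ. Among peaks at least 300 bp wide the fold was 25.1, with ratios of 0.212 in the flanks and 0.00847 elsewhere.

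**Figure D1:**
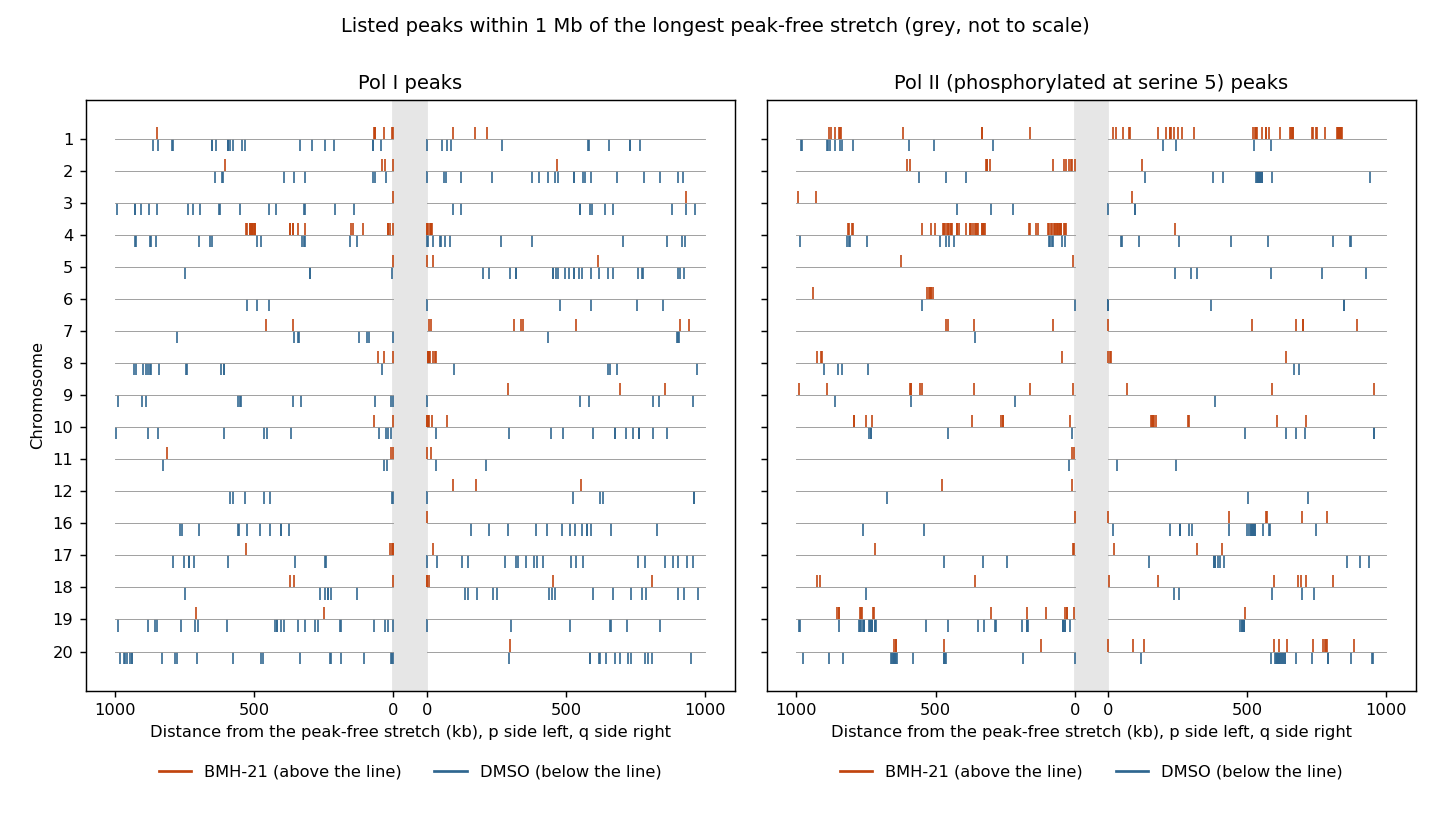
Position of the 995 peaks beside the peak-free stretch, by chromosome (rows) and distance in kb, with BMH-21 peaks above and DMSO peaks below each line. BMH-21 Pol I peaks (left) crowd some edges of the stretch, and DMSO Pol I peaks spread over the flanks. BMH-21 Pol II peaks (right) are densest on the p side of chromosome 4 (57 peaks) and the q side of chromosome 1 (44 peaks).

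By distance, 35 Pol I peaks of the BMH-21 list and 20 of the DMSO list lay within 10 kb of the stretch. From 10 to 100 kb the numbers were 30 after BMH-21 and 33 after DMSO, from 100 to 500 kb 26 after BMH-21 and 119 after DMSO, and from 500 kb to 1 Mb 25 after BMH-21 and 218 after DMSO. The ratio of BMH-21 to DMSO peaks in these steps was 1.75, 0.909, 0.218 and 0.115. Beyond the flanks it was 0.0298 from 1 to 2 Mb and 0.0428 more than 5 Mb away. The peaks that bound the stretch are at distance 0 by construction, and they comprised 14 BMH-21 and 11 DMSO peaks of Pol I. Without them the ratio within 10 kb was 2.33, from 21 BMH-21 and 9 DMSO peaks.

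Per unit length, BMH-21 Pol I peaks numbered 103 per Mb in the first 10 kb of the flanks and 0.441 per Mb from 1 to 2 Mb. DMSO Pol I peaks numbered 58.8 and 14.8 per Mb in those steps. Without the bounding peaks, which the selection places in the first 10 kb, the density there was 61.8 per Mb after BMH-21 and 26.5 per Mb after DMSO. Peaks covered 15.6% of the first 10 kb after BMH-21 and 3.32% after DMSO, or 11.2% after BMH-21 and 1.48% after DMSO without the bounding peaks. At 100 to 500 kb the covered share was 0.0969% after BMH-21 and 0.542% after DMSO. Of the steps up to 5 Mb, the DMSO Pol I density was lowest at 100 to 500 kb, with 8.75 per Mb, and the BMH-21 density at 1 to 2 Mb.

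**Figure D2:**
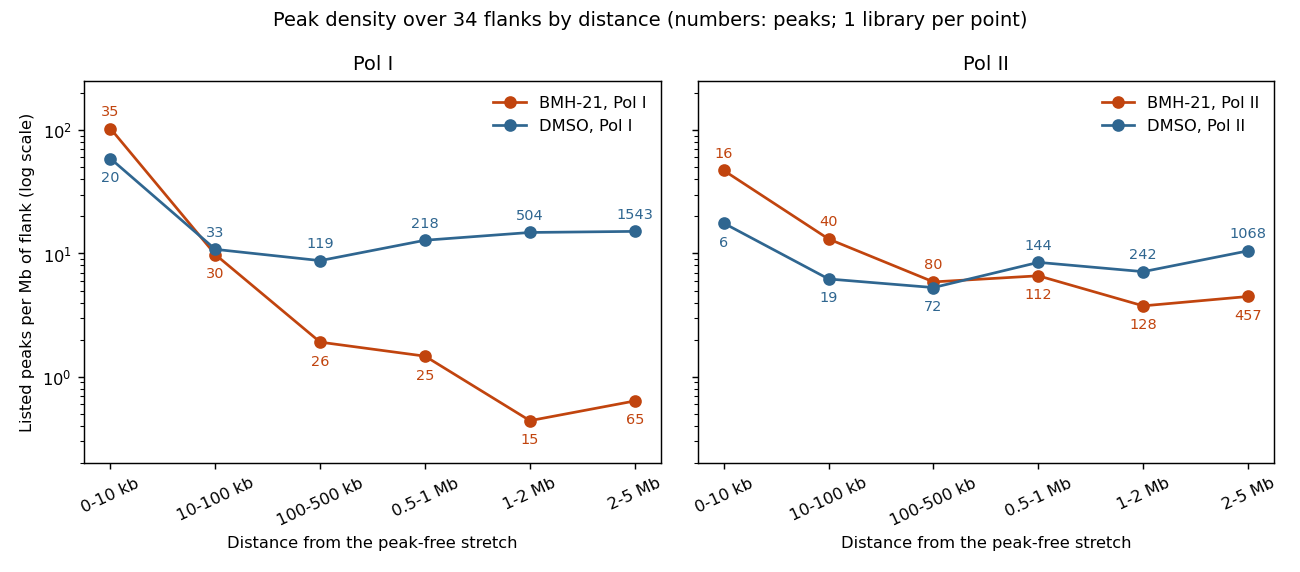
Listed peaks per Mb of flank (log scale) in steps of distance from the peak-free stretch, summed over 34 flanks, with the number of peaks beside each point and 1 library per line. For Pol I (left) the BMH-21 line falls to 0.441 per Mb at 1 to 2 Mb while the DMSO line ends near 15.1 per Mb, and for Pol II (right) the BMH-21 line is above the DMSO line up to 500 kb and below it farther out.

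The 5 highest-scored BMH-21 Pol I peaks of the flanks all lay within 20 kb of the stretch, the farthest at 11957 bp. The leading one spanned 43833230 to 43838882 of chromosome 8 (5653 bp), scored 1953.14 and bounded the stretch on the p side. It ranked 2 in the whole BMH-21 Pol I list. On the p side of chromosome 17 a peak at 22258886 to 22262214 had a score of 1398.38 and lay 811 bp from the stretch, and another at 22246992 to 22251068 had a score of 829.26. A peak on chromosome 2 at 92305145 to 92309401 scored 977.97 at 1925 bp from the stretch. The fifth was on the q side of chromosome 8, at 46854707 to 46856646, with a score of 607.11. All 10 BMH-21 Pol I peaks of the flanks that were among the top 5% of their list by score lay within 20 kb of the stretch, where 48 of the 116 peaks lay, and 0 of the other 68 did. The limit of 20 kb was not one of the distance steps set beforehand. By those steps, 8 of the 10 lay within 10 kb and 2 at 10 to 100 kb. The top group made 8.62% of the 116 (4.21 to 15.3), against 5.02% of the whole list by definition.

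BMH-21 Pol I peaks at the edge were wide, and on a few flanks they stood nearly end to end. The median width was 1030 bp for the 48 BMH-21 Pol I peaks within 20 kb of the stretch and 351.5 bp for the 68 farther out. In the flanks, 34 of 116 peaks (29.3%, 21.2 to 38.5) were at least 1000 bp wide, against 4.45% of the whole BMH-21 Pol I list. On the p side of chromosome 17, 4 BMH-21 Pol I peaks covered 15.5 kb of the first 20 kb. On the q side of chromosome 10, 6 such peaks covered 9.51 kb of the first 20 kb, and on the q side of chromosome 8, 7 covered 9.33 kb. Over all 34 flanks, peaks covered 10.5% of the first 20 kb in the BMH-21 Pol I list and 1.8% in the DMSO Pol I list. The number of flanks with a peak there was similar, 18 after BMH-21 (48 peaks) and 15 after DMSO (22 peaks). Many of the 48 were on a few flanks, with 8 on the q side of chromosome 4 alone. Another peak of the same list lay within 1 kb of 40 of the 116 peaks (34.5%, 25.9 to 43.9), against 20.3% of the list.

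**Figure D3:**
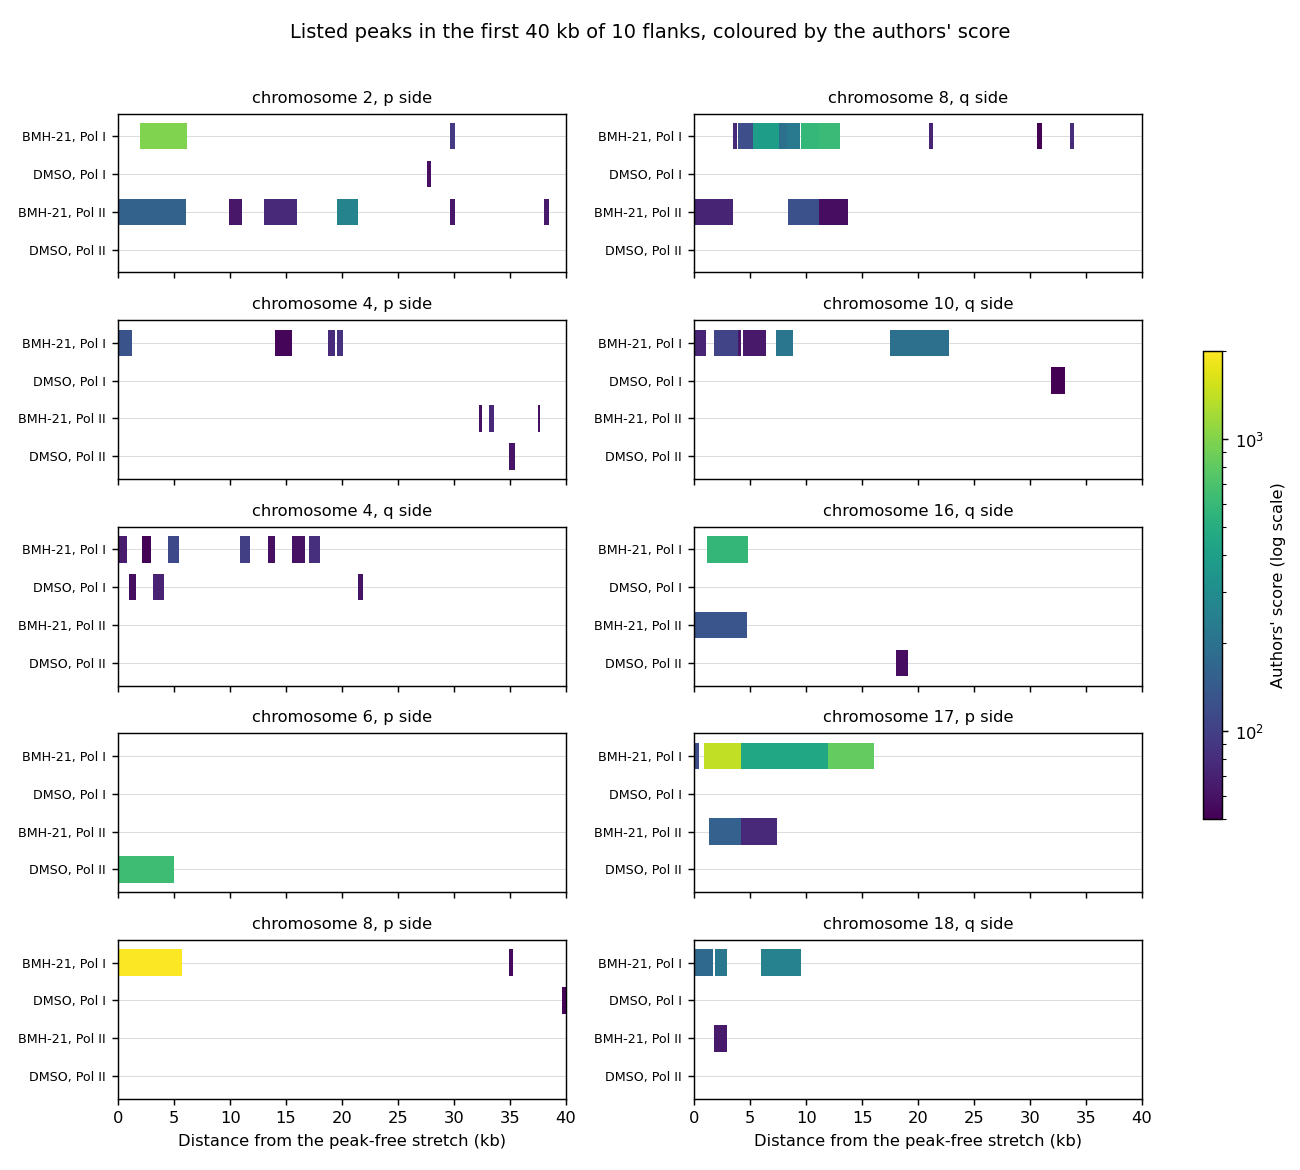
Listed peaks in the first 40 kb from the stretch on the 10 flanks with most bases under the peaks of 1 list, with 1 track per library and colour for the authors' score (log scale). On the p side of chromosome 17 the 4 BMH-21 Pol I blocks, with scores of 119.77 to 1398.38, stand nearly end to end, the chromosome 8 p side starts with a single block scored 1953.14, and the chromosome 6 p side has only a DMSO Pol II block, scored 635.75.

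DMSO Pol I scores were not higher at the edge. Their median was 69.97 for the 22 peaks within 20 kb of the stretch and 89.37 for the 368 farther out, and the median over the rest of these chromosomes was 98.62. The 5 highest were far from the edge, at 515 to 997 kb. Chromosome 20 had those at 25364684 to 25365726 (score 642.87), 25326208 to 25327021 (524.0) and 25604198 to 25605421 (444.97). Chromosome 10 had the one at 38149298 to 38150177 (574.64), and chromosome 19 the one at 28283872 to 28285470 (432.94). Each was 814 to 1599 bp wide. The median width was 396 bp for the 22 peaks within 20 kb of the stretch and 477 bp for the 368 farther out. Of the 390 peaks, 15 (3.85%, 2.17 to 6.26) were in the top 5% of the list, against 5.00% by definition. At least 1000 bp wide were 30 (7.69%, 5.25 to 10.8), against 2.55% of all DMSO Pol I peaks. A peak of the same list was within 1 kb of 41 (10.5%, 7.65 to 14.0), against 12.7%.

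**Figure D4:**
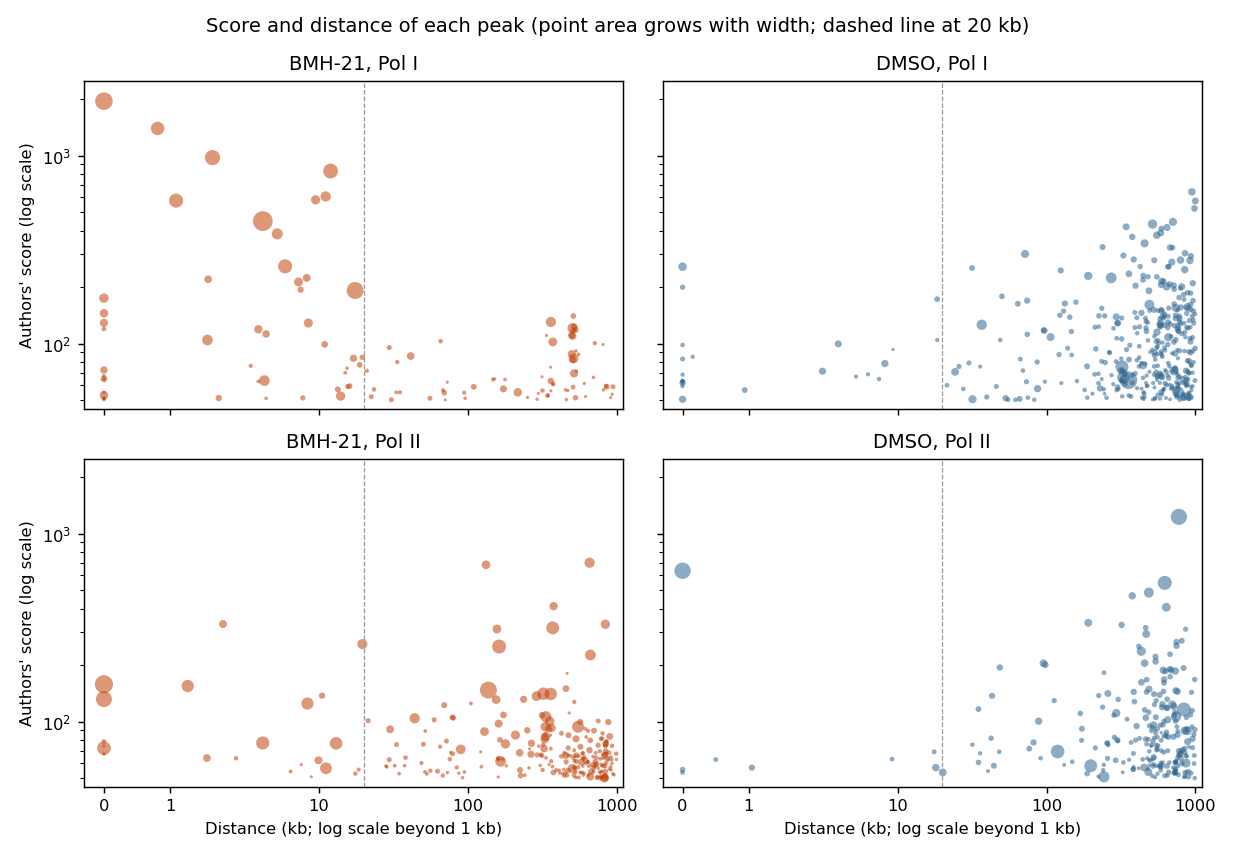
The authors' score (log scale) of each peak of the flanks against its distance from the stretch in kb (log scale beyond 1 kb), in 1 panel per library, with point area growing with peak width and a dashed line at 20 kb. BMH-21 Pol I scores of 200 or more (13 peaks) all lie left of the line, whereas of the DMSO Pol I peaks at such scores 46 lie right of it and 1 left.

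For Pol II, the BMH-21 list held about as many peaks in the flanks as the DMSO list, although it was much the shorter list. The 248 BMH-21 Pol II peaks made 2.59% (2.28 to 2.93) of those on the 17 chromosomes, and the 241 DMSO Pol II peaks 0.977% (0.858 to 1.11). The BMH-21 to DMSO ratio was 1.03 in the flanks and 0.382 on the rest of these chromosomes, a 2.70-fold difference between the ratios. It was 2.67 within 10 kb (16 BMH-21 and 6 DMSO peaks), 2.11 from 10 to 100 kb (40 BMH-21 and 19 DMSO), 1.11 from 100 to 500 kb (80 BMH-21 and 72 DMSO) and 0.778 from 500 kb to 1 Mb (112 BMH-21 and 144 DMSO). More than 5 Mb away it was 0.378. Without the bounding peaks the ratio within 10 kb was 3.33, from 10 BMH-21 and 3 DMSO peaks. The flanks of chromosomes 1 and 4 weighed heavily on this count. Without these chromosomes the ratio was 0.677 in the flanks, from 136 BMH-21 and 201 DMSO peaks, and 0.382 elsewhere. Among peaks scored at or above the DMSO median it was 0.544 in the flanks and 0.15 elsewhere, and among peaks at least 300 bp wide 0.668 in the flanks and 0.147 elsewhere. The fold between the ratios was 1.77, 3.63 and 4.56 in these settings. The score cutoff was the DMSO one for both lists, whose scales may differ. The ratio in the flanks thus stayed above that elsewhere, while the near-equal number of BMH-21 and DMSO peaks did not hold. With the stretch taken from each list alone, the flanks held 198 BMH-21 and 309 DMSO Pol II peaks, a ratio of 0.641.

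The BMH-21 Pol II peaks of the flanks were concentrated in a few places. The p side of chromosome 4 had 57 and the q side of chromosome 1 had 44, which together made 40.7% of the 248, while the median over 34 flanks was 3.5. DMSO Pol II peaks on these flanks numbered 15 on chromosome 4 and 4 on chromosome 1. Runs of at least 5 peaks of a list with no gap over 10 kb held 77 of the 248 (31.0%, 25.3 to 37.2), against 22.9% of all BMH-21 Pol II peaks. There were 10 such runs, 4 of them on the p side of chromosome 4. Those with most peaks were at 49559622 to 49605876 (15 peaks), 49180649 to 49215386 (10 peaks) and 49277016 to 49306738 (8 peaks) of chromosome 4, 143442689 to 143458366 of chromosome 1 (10 peaks) and 42527123 to 42546524 of chromosome 10, 1 of 4 runs with 6 peaks. The run on chromosome 10 was 55.0% covered by its peaks, and that at 49559622 of chromosome 4 was 12.3% covered.

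Of the 5 top BMH-21 Pol II scores in the flanks, 4 came from chromosomes 1 and 4. On chromosome 1 the peak at 143274517 to 143276451 scored 701.27 and that at 143455630 to 143457233 scored 330.13. On chromosome 4 the peak at 49520931 to 49522341 scored 683.4 and that at 49277016 to 49278293 scored 412.17. The exception, scored 330.9, was the chromosome 11 peak at 51590260 to 51591414, which lay 2265 bp from the stretch. The best of them ranked 168 in its list. Of the 248, 10 (4.03%, 1.95 to 7.29) were in the top 5% of the list, against 5.00% by definition, while 46 (18.5%, 13.9 to 24.0) were at least 1000 bp wide, against 4.79%. Near the edge the peaks were wide too, with a median of 1132 bp for the 22 within 20 kb and 357 bp for the other 226. A peak of the same list was within 1 kb of 60 (24.2%, 19.0 to 30.0), against 24.3% of the list.

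DMSO Pol II peaks of the flanks looked like the rest of their list in most measures. Their median width was 529 bp, against 499 bp elsewhere on the 17 chromosomes, and their median score 78.82, against 80.81. The 8 peaks within 20 kb of the stretch had a median width of 512 bp, against 529 bp farther out in the flanks. Of 241, 26 (10.8%, 7.17 to 15.4) were at least 1000 bp wide, against 7.71%, and 11 (4.56%, 2.30 to 8.02) were in the top 5%, against 5.00%. Another DMSO Pol II peak lay within 1 kb of 80 (33.2%, 27.3 to 39.5), the same share as in the list (33.2%). Runs held 79 (32.8%, 26.9 to 39.1), against 33.4%.

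The DMSO Pol II list had 8 such runs in the flanks, 4 of them on chromosome 19, and the nearest lay 34.9 kb from a stretch. The run with most peaks was on chromosome 20 at 30116945 to 30155770 (16 peaks, 33.5% covered). Runs of 11 peaks spanned 23550493 to 23576068 of chromosome 19, 46930932 to 46960337 of chromosome 16 and 95941264 to 95966665 of chromosome 2, and a run of 9 spanned 25650343 to 25672383 of chromosome 20. The highest score, 1231.6, belonged to the chromosome 19 peak at 23510022 to 23514845, inside a further run of 7 peaks and 774 kb from the stretch. It ranked 3 in the DMSO Pol II list. The next, with 635.75, spanned 58775256 to 58780200 of chromosome 6 (4945 bp) and bounded the stretch on the p side. The others scored 548.19 (chromosome 20, 30138807 to 30142417), 486.54 (chromosome 19, 28255043 to 28256887) and 467.52 (chromosome 2, 95787141 to 95788177). Of these 5, the peak on chromosome 6 was the only one within 20 kb of a stretch.

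Runs of Pol I peaks depended on how a run was defined. With at least 5 peaks and gaps up to 10 kb, the BMH-21 Pol I list had 4 runs with 37 of its 116 peaks (31.9%, 23.6 to 41.2), against 12.2% of the whole list. They were on the p side of chromosome 4 at 49125064 to 49157082 (13 peaks, 498 kb from the stretch), the q side of chromosome 8 at 46847106 to 46877517 (10 peaks), the q side of chromosome 4 at 52660561 to 52678579 (8 peaks) and the q side of chromosome 10 at 42372363 to 42395153 (6 peaks, 54.0% covered). The last 3 began within 3.48 kb of the stretch. The DMSO Pol I list had 0 of 390 peaks in such a run, against 4.07% of the whole list. Peaks enter a run in groups of at least 5, so no upper share is given for this 0. For the same reason the intervals on shares in runs, which count each peak separately, are only rough. With looser definitions the DMSO list, with 390 peaks in the flanks against 116 after BMH-21, had the larger number of runs. Runs of at least 3 peaks numbered 9 after BMH-21 and 12 after DMSO, and with gaps up to 20 kb there were 5 runs after BMH-21 and 6 after DMSO. These are numbers of runs and not shares of peaks.

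Some peaks of the flanks coincided with a peak of the other antibody. After BMH-21, 17 of 116 Pol I peaks (14.7%, 8.78 to 22.4) shared at least 1 bp with a Pol II peak, against 9.52% of the BMH-21 Pol I list. Among BMH-21 Pol II peaks, 14 of 248 (5.65%, 3.12 to 9.29) did so with a Pol I peak, against 1.61%. After DMSO, 38 of 390 Pol I peaks (9.74%, 6.99 to 13.1) met a Pol II peak, against 14.0% of the list, and 36 of 241 Pol II peaks (14.9%, 10.7 to 20.1) met one of Pol I, against 20.5%. The flanks were thus above their list after BMH-21, with the list's share inside the interval for Pol I peaks. After DMSO they were below it, but for Pol II this depended on the window. Within 500 kb of the stretch the share was 21.6%, above the list's 20.5%. Within 2 Mb it was 20.1%, just below the list.

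Of the 18 overlapping pairs after BMH-21, 9 lay within 20 kb of the stretch, whereas 2 of the 38 pairs after DMSO did. These shares, 50% after BMH-21 and 5.26% after DMSO, were near those of all Pol I peaks of the flanks, of which 41.4% after BMH-21 and 5.64% after DMSO lay within 20 kb. The Pol I score was the higher in 12 of the 18 pairs and in 19 of the 38, on scales that may differ between libraries. On chromosome 17 the Pol I peak at 22258886 to 22262214 (score 1398.38) held the Pol II peak at 22258907 to 22261712 (154.82) completely. The next Pol I block, at 22251130 to 22258833 (448.91), overlapped a Pol II peak at 22255647 to 22258839 (77.03). On chromosome 2 the Pol I peak at 92305145 to 92309401 (977.97) shared 4170 bp with the Pol II peak at 92305232 to 92311326 (158.06), which bounded the stretch.

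The edge of chromosome 16 on the q side showed the same pairing, with a Pol I peak at 46431979 to 46435633 (577.17) and a Pol II peak at 46430883 to 46435609 (131.81). On the q side of chromosome 8, Pol I peaks at 46851897, 46853116 and 46854707 (223.8, 582.73 and 607.11) overlapped Pol II peaks that started at 46851991 and 46854764 (124.81 and 56.46). The Pol II score was the higher in 6 of the 18 pairs, which were on the p sides of chromosomes 4, 7 and 18. On chromosome 4 the Pol II peak at 49280533 to 49283591 (315.53) spanned Pol I peaks scored 61.1 and 102.08, more than 371 kb from the stretch, while in another pair there, at 49150359 to 49152176, Pol I scored 120.99 and Pol II 56.22.

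After DMSO the leading pairs were in the body of the flanks. Chromosome 20 had a Pol I peak at 30140909 to 30141315 (92.15) inside the Pol II peak at 30138807 to 30142417 (548.19). Chromosome 2 had one at 95787174 to 95787936 (369.91) inside a Pol II peak scored 467.52. On the p side of chromosome 19 a Pol I peak at 24097171 to 24098438 (229.43) covered the whole of a Pol II peak scored 335.96. The next 7 pairs by the higher score, 251.41 to 327.28, were on the q sides of chromosomes 5, 10, 11, 17 and 18.

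Across treatments, 21 of 390 DMSO Pol I peaks (5.38%, 3.36 to 8.11) coincided with BMH-21 Pol II peaks, against 2.43% of the list. Seen from the other side, 22 of 248 BMH-21 Pol II peaks (8.87%, 5.64 to 13.1) coincided with DMSO Pol I peaks, against 9.01%. The 2 highest-scored BMH-21 Pol II peaks of the flanks were among them, with DMSO Pol I peaks at 143274725 to 143275998 of chromosome 1 (108.1) and 49521204 to 49521922 of chromosome 4 (163.54). In contrast, 0 of 116 BMH-21 Pol I peaks coincided with a DMSO Pol II peak, which allows a share of up to 2.59%, against 3.62% of the list. Likewise 0 of 241 DMSO Pol II peaks coincided with a BMH-21 Pol I peak, which allows up to 1.24%, against 0.240% of the list.

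The pattern ran through most chromosomes but not all. For Pol I, the BMH-21 to DMSO ratio was higher in the flanks than in the rest of the chromosome on 15 of 17 chromosomes. It ranged up to 1.21 on chromosome 4 (34 BMH-21 and 28 DMSO peaks), 1.0 on chromosome 11 (5 of each), 0.833 on chromosome 7 (10 BMH-21 and 12 DMSO) and 0.684 on chromosome 8 (13 BMH-21 and 19 DMSO). The exceptions were chromosome 6, with 0 BMH-21 and 8 DMSO peaks, and chromosome 20, with 1 BMH-21 and 36 DMSO. On chromosomes 16 and 19 the flanks came near the rest of the chromosome. The ratio was 0.04 against 0.0372 on chromosome 16 (1 BMH-21 and 25 DMSO peaks). On chromosome 19 it was 0.0667 against 0.0573 (2 BMH-21 and 30 DMSO peaks). BMH-21 peaks were also few on chromosome 3, with 2, and on chromosomes 9 and 12, with 3 each.

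For Pol II the ratio was also higher in the flanks on 15 of 17 chromosomes, and BMH-21 peaks outnumbered DMSO peaks on 7. The largest ratios with at least 10 BMH-21 peaks were 10.0 on chromosome 7 (10 BMH-21 and 1 DMSO peaks), 3.38 on chromosome 1 (54 BMH-21 and 16 DMSO), 3.25 on chromosome 9 (13 BMH-21 and 4 DMSO) and 2.42 on chromosome 4 (58 BMH-21 and 24 DMSO). Chromosome 5, with 2 BMH-21 and 6 DMSO peaks, and chromosome 16, with 7 BMH-21 and 25 DMSO peaks, went the other way. Chromosome 19 held 16 BMH-21 and 46 DMSO Pol II peaks, and chromosome 20 held 17 BMH-21 and 44 DMSO.

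**Figure D5:**
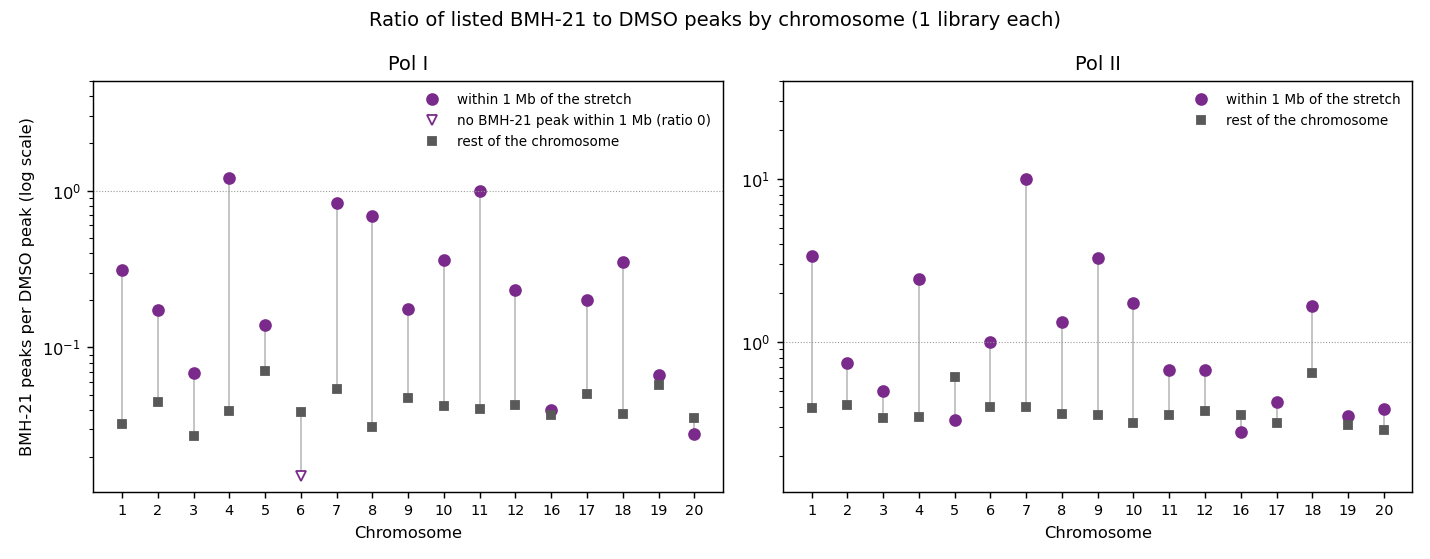
Number of listed BMH-21 peaks per listed DMSO peak (log scale) by chromosome, in the 1 Mb flanks of the stretch (circles) and on the rest of the chromosome (squares), for Pol I (left) and Pol II (right). Circles are above squares on 15 of 17 chromosomes for each antibody, and the open triangle marks chromosome 6, with 0 BMH-21 Pol I peaks beside the stretch.

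Single flanks were uneven. BMH-21 Pol I peaks were present on 27 of the 34 flanks, with a median of 2 and at most 26, on the p side of chromosome 4. DMSO Pol I peaks were on all 34, with a median of 11. More BMH-21 than DMSO peaks were found on 3 flanks for Pol I and on 16 for Pol II. Peaks of all 4 lists occurred on 22 flanks. The p and q sides held 59 and 57 BMH-21 Pol I peaks, 196 and 194 DMSO Pol I peaks, 149 and 99 BMH-21 Pol II peaks, and 112 and 129 DMSO Pol II peaks.

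The peak numbers skip values, in the flanks and elsewhere. Over each whole list, 12.3% of the BMH-21 Pol I numbers, 76.7% of the DMSO Pol I numbers, 23.0% of the BMH-21 Pol II numbers and 51.9% of the DMSO Pol II numbers were listed. Within windows that hold at least 2 listed peaks the share can be higher, since longer gaps fall outside them. From the first to the last listed peak of a flank, the BMH-21 Pol I numbers ran over 194 values, of which 56.2% (48.9 to 63.3) were listed, and the DMSO Pol I numbers over 540, of which 72.2% (68.2 to 76.0) were listed. In all other windows of 1 Mb with at least 2 listed peaks, counted outward from the stretch, the listed share was 55.3% after BMH-21 and 79.1% after DMSO. At 1 to 2 Mb it was 28.6% (13.2 to 48.7) after BMH-21, from only 3 windows with 8 listed peaks, and 77.0% after DMSO. At 2 to 3 Mb it was 51.0% after BMH-21 and 77.1% after DMSO. For Pol II, 42.8% of 568 BMH-21 numbers (38.7 to 47.0) and 54.0% of 437 DMSO numbers (49.2 to 58.8) were listed in the flanks, against 33.1% after BMH-21 and 59.2% after DMSO in the other windows. Peak numbers rose with position along a chromosome, so a number skipped between 2 listed peaks of a flank belongs to that flank. Its exact position is not given. The ratios above count listed peaks only. The listed share of BMH-21 Pol I numbers was 56.2% in the flanks and 12.3% over the whole list. For DMSO Pol I it was 72.2% and 76.7%. For Pol II it was 42.8% and 23.0% after BMH-21, and 54.0% and 51.9% after DMSO. How much of the ratios comes from these differences in listing was not tested.

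At the limit of 1 Mb, the last BMH-21 Pol I peak inside lay at 942 kb on chromosome 7 (score 58.91) and the first outside at 1114 kb on chromosome 1 (53.39). For DMSO Pol I, the last inside was at 997 kb (574.64) and the first outside at 1001 kb (129.65), both on chromosome 10. For BMH-21 Pol II they were at 995 kb on chromosome 3 (62.89) and 1002 kb on chromosome 9 (410.26), and for DMSO Pol II at 990 kb (90.66) and 1008 kb (64.39) on chromosome 19.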

How the data were processed

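Each of 4 ChIP libraries has 1 deposited list of peaks, with position, numbered name and a value under a p-value heading. That value starts at 50, so it was treated as the authors' score and used mainly within a list. The setting of scores at or above the DMSO median put the DMSO cutoff on both treatments of an antibody. Overlapping pairs compared scores of 2 lists, although the scales may differ. The submitters' processing notes name CASAVA 1.8.2, Bowtie2 2.2.1, deepTools 3.5.4 and the build hg19. Peak names begin with MACS, a peak caller. The sources used here do not give its settings, the use of the inputs or the handling of repeated reads.

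Starts were converted to count from 1. The peak-free stretch was found per chromosome on the union of the 4 lists, and distance was counted in bases from its edge. Overlap meant at least 1 bp, a run at least 5 peaks of a list with gaps up to 10 kb, and wide at least 1000 bp. For a count of 0 overlaps, the share allowed is that of 3 counts. Named regions were the 5 with the highest score per list, the peaks bounding the stretch, up to 10 leading overlapping pairs per treatment and the 5 runs with most peaks per list. Any other region was chosen after its values were seen. The limit of 20 kb was not one of the distance steps set beforehand. The members, calls and alternatives were chosen with earlier results of these data known. No test was run, as each group had 1 library, and groups came from the sample labels. The functions were tested on simulated data. Python 3.11.15, NumPy 2.4.6, pandas 2.3.3, SciPy 1.17.1 and matplotlib 3.10.9 were used.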

Additional observations from a re-analysis of the deposited data

How the results depend on the processing

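Of 246 values of 30 results under other settings, 152 stayed within 1.5 times the reported count or within its counting interval and 94 moved. In every setting applied to both treatments the share of listed peaks near the stretch was higher after BMH-21 than after DMSO for each antibody. Wider or narrower windows and filters change the number of peaks by construction, and for the other moved values the cause was not tested. With a window of 100 kb, the numbers were 65 BMH-21 Pol I (3.94%), 53 DMSO Pol I (0.146%), 56 BMH-21 Pol II (0.585%) and 25 DMSO Pol II peaks (0.101%), the BMH-21 to DMSO ratio was 1.23 for Pol I and 2.24 for Pol II, the median width was 632 bp for DMSO Pol II, and median scores were 71.3 for DMSO Pol I and 69.1 for DMSO Pol II. With 500 kb, BMH-21 Pol I peaks made 5.52%, and there were 172 DMSO Pol I (0.473%), 136 BMH-21 Pol II (1.42%) and 97 DMSO Pol II peaks (0.393%). There the Pol I ratio was 0.529, 21.6% of DMSO Pol II peaks met a Pol I peak, and the listed share of peak numbers was 70.3% for BMH-21 Pol I, 52.1% for BMH-21 Pol II and 64.0% for DMSO Pol II. With 2 Mb there were 894 DMSO Pol I (2.46%), 376 BMH-21 Pol II (3.93%) and 483 DMSO Pol II peaks (1.96%), the Pol I ratio was 0.147, the median width was 322 bp for BMH-21 Pol II, 20.1% of DMSO Pol II peaks met a Pol I peak, and the listed share was 41.4% for BMH-21 Pol I and 36.5% for BMH-21 Pol II. With 5 Mb the numbers were 196 BMH-21 Pol I (11.9%), 2437 DMSO Pol I (6.7%), 833 BMH-21 Pol II (8.71%) and 1551 DMSO Pol II peaks (6.29%), with ratios of 0.0804 for Pol I and 0.537 for Pol II. With the stretch taken from each list alone, the shares were 4.73% for BMH-21 Pol I, 1.2% for DMSO Pol I, 2.07% for BMH-21 Pol II and 1.25% for DMSO Pol II, and the Pol I ratio was 0.178, the Pol II ratio 0.641. Over all chromosomes the DMSO Pol I share was 1.22%. With scores at or above the DMSO median there were 37 BMH-21 Pol I (12.9%), 169 DMSO Pol I (0.926%), 62 BMH-21 Pol II (3.29%) and 114 DMSO Pol II peaks, the Pol II ratio was 0.544, and 9.68% of BMH-21 Pol II peaks met a Pol I peak. With widths of at least 300 bp, BMH-21 Pol I peaks made 21.6%, 155 BMH-21 Pol II peaks made 4.3%, and the Pol II ratio was 0.668. The Pol II ratio was also under 1 with windows of 2 Mb and 5 Mb, with each list's own stretch, over all chromosomes, with runs counted once, without chromosomes 1, 9 and 16, and without chromosome 1. Leaving out chromosomes 1 and 4, or 8 and 17, was chosen after seeing the data. Without chromosomes 1 and 4 the BMH-21 lists had 72 Pol I peaks (5.2%) and 136 Pol II peaks (1.71%), the Pol II ratio was 0.677, and 59.9% of DMSO Pol II numbers were listed. With each run counted once there were 66 BMH-21 Pol I (5.16%), 130 BMH-21 Pol II (2.15%) and 136 DMSO Pol II peaks. Leaving out 1 chromosome gave its lowest shares without chromosome 4 after BMH-21, at 5.41% (Pol I) or 2.1% (Pol II), and without chromosome 20 for DMSO Pol II (0.823%). The median width was 343 bp for BMH-21 Pol I without chromosome 4 and 332 bp for BMH-21 Pol II without chromosome 1. Counting peaks within 1 kb as meeting gave 25.9% of BMH-21 Pol I, 14.1% of DMSO Pol I and 23.7% of DMSO Pol II peaks. Runs of at least 3 peaks numbered 9 for BMH-21 Pol I, 12 for DMSO Pol I, 25 for BMH-21 Pol II and 16 for DMSO Pol II, and runs of at least 10 peaks 2 for BMH-21 Pol I, 3 for BMH-21 Pol II and 4 for DMSO Pol II. Gaps up to 20 kb gave 6 DMSO Pol I runs, and gaps up to 5 kb gave 6 BMH-21 Pol II runs. No paired analysis was possible because each group has 1 sample, and for the same reason no replicate could be left out.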

Other observations

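Chromosome X was outside the 17 chromosomes. Its longest peak-free stretch, 3.10 Mb from 58582007 to 61682033, was barely longer than the next, 3.01 Mb. Within 1 Mb of it lay 12 BMH-21 Pol I peaks of 52 on the chromosome, against 5 DMSO Pol I peaks of 834. For Pol II the numbers were 1 BMH-21 peak of 239 and 5 DMSO peaks of 514. On this chromosome the BMH-21 list thus had more Pol I peaks beside the stretch than the DMSO list, and fewer Pol II peaks.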
